A study of Homo sapiens with 11 samples.

Results

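The nuclear genes of the mitochondrial respiratory chain and ATP synthase were followed through nickel exposure and its removal, as transcript levels in RT4 cells and as promoter H3K4me3 in BEAS-2B cells. They were chosen by symbol alone, as every gene whose name starts with NDUFA, NDUFB, NDUFC, NDUFS or NDUFV and a number, with UQCR, with COX and a number from 4 to 8, or with ATP5, and the genes SDHA, SDHB, SDHC and SDHD. Pseudogenes and antisense or divergent transcripts were dropped, which removed 5 symbols. The rule gave 91 genes, all present in both tables, of 28252 genes in the RT4 table and 26237 in the H3K4me3 table. By complex, 37 belong to complex I, 4 to complex II, 9 to complex III, 19 to complex IV and 20 to complex V. NDUFA4 and its paralog NDUFA4L2 were counted with complex IV, where NDUFA4 is now placed. The remaining 2, DMAC2 and DMAC2L, matched only through older ATP5 names and belong to no complex.

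RT4 is a line of human urinary bladder epithelial cells from a papillary tumour, and BEAS-2B is an immortalized line of human bronchial epithelial cells. In both lines untreated (UT) cells were set against nickel-exposed (Ni-E) cells, which had 6 weeks of 100 μM NiCl2, and Ni-washed-out (Ni-W) cells, which had the same exposure and then medium without nickel. RT4 Ni-W cells had 2 weeks of washout. BEAS-2B Ni-W cells came from a single colony and had been kept for more than 6 months without nickel, so that clone, time and treatment cannot be told apart there. RNA-Seq of RT4 had 2 libraries per condition, 1 without a suffix in its title and 1 marked Dup, and the study's methods describe the RNA as coming from 2 biological replicates. H3K4me3 ChIP-Seq had 1 library per condition and allows no test of a condition.

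The respiratory chain passes electrons from NADH (complex I) and succinate (complex II) through ubiquinone to complex III, then through cytochrome c to complex IV, which reduces oxygen. Complexes I, III and IV pump protons, and complex V uses the proton gradient to make ATP. Complexes I, III, IV and V mix subunits encoded in the nucleus with a few encoded in mitochondrial DNA, and complex II is wholly nuclear. Some subunits of complex IV have alternative forms for hypoxia, muscle or testis. Nickel ions can stabilize hypoxia-inducible factor (HIF), which in hypoxia favours glycolysis over respiration. H3K4me3 is a histone mark found at the promoters of active genes. The mitochondrially encoded subunits were not analysed here.

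Depth and identity bear on all of these values. Estimated counts summed to 17075823 to 18280562 per library in the 3 RT4 libraries without suffix and to 25721268 to 27736460 in the 3 Dup libraries. H3K4me3 depth, recovered from the step between RPKM values, was 28385725 reads in UT, 37493949 in Ni-E and 29933551 in Ni-W cells. RT4 cells had high levels of the urothelial markers KRT7 (4384 to 6549 TPM, the deposited length-adjusted share of transcripts) and GATA3 (178 to 236 TPM). The urothelial KRT20 had 0.11 to 11.3 TPM. Of fibroblast markers, COL1A2 and DCN were at 0, COL1A1 at 0.53 to 0.85 and COL3A1 at 0.26 to 4.55 TPM. Of leukocyte markers, CD3E was at 0 and CD68 at 7.30 to 13.4 TPM. In BEAS-2B cells the epithelial keratin promoters KRT7, KRT8 and KRT18 were marked (6.98 to 8.27 RPKM in UT and Ni-E cells), while KRT5 and TP63 stayed at 0.15 to 0.40 RPKM, KRT19 at 0.43 to 0.74 and CDH1 at 0.65 to 1.02. The fibroblast-associated COL1A1 and PDGFRB were marked too, at 8.74 and 6.98 RPKM in UT cells, and the mark cannot say how much RNA these cells made.

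Promoters of this family are known for binding sites of NRF1, ETS factors such as GABP, and YY1. Of the 91 genes, 73 had an entry in a RefSeq promoter table (GRCh38.p14), and each was read from 250 bases before the most upstream RefSeq start through 30 bases from it. The NRF1 core GCATGCGC, on either strand, was in 13 of 73 (17.8%) against 3.20% of 27305 promoters in the table. The ETS core CCGGAAG was in 20 (27.4% against 10.3%), the YY1 core AAGATGGC in 8 (11.0% against 2.52%), and the HIF core ACGTG in 18 (24.7% against 20.4%). At least 1 of the NRF1, ETS and YY1 cores was in 32 promoters, or 43.8% against 14.8%. A match describes these letters only. The 6 promoters below are shown in the direction of transcription, with any match to a core on either strand in capitals. SDHB (chr1:17054003-17054282, minus strand) holds NRF1, ETS and YY1 cores in that order, and SDHD (chr11:112086623-112086902, plus strand) overlapping NRF1 cores on both strands and an ETS core. NDUFS3 (chr11:47578824-47579103, plus strand) holds an ETS core on each strand around a HIF core. NDUFB3 (chr2:201071751-201072030, plus strand), NDUFB10 (chr16:1959288-1959567, plus strand) and NDUFA4L2 (chr12:57240733-57241012, minus strand) hold no match. Among the respiratory chain promoters with at least 1 RPKM on average, they are those with the highest Ni-W over UT ratio of H3K4me3, the lowest one, and the lowest Ni-E over UT ratio.
SDHB: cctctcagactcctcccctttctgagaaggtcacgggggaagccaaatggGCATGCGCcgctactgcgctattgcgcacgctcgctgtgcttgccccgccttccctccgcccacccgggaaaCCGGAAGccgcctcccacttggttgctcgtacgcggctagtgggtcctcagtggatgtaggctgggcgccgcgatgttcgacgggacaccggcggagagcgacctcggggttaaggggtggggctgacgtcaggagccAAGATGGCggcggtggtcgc
SDHD: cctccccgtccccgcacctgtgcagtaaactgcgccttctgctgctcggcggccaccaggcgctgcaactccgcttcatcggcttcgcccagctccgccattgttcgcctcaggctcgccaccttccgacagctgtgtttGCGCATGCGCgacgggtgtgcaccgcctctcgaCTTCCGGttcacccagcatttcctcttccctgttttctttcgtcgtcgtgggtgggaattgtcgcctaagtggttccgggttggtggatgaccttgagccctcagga
NDUFS3: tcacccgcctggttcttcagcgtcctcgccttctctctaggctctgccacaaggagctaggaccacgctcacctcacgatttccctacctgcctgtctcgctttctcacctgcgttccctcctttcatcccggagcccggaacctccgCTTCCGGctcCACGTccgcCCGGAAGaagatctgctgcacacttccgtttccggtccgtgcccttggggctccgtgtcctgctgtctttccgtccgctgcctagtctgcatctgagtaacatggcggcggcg
NDUFB3: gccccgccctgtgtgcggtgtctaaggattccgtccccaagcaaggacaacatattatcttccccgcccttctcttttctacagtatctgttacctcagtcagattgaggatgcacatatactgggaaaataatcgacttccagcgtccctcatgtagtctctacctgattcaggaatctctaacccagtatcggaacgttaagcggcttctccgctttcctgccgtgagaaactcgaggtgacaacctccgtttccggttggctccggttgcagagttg
NDUFB10: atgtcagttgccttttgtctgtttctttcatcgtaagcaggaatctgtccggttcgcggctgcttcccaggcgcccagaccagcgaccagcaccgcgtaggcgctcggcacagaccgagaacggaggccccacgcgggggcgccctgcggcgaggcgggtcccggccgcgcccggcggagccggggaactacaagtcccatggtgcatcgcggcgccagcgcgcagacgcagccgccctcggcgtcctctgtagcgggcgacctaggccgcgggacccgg
NDUFA4L2: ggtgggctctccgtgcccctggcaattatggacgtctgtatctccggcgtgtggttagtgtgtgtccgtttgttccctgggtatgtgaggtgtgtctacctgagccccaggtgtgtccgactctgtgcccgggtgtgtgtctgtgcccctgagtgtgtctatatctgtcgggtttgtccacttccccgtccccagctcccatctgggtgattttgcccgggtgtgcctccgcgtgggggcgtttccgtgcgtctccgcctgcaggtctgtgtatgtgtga

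In RT4 cells most of these transcripts were abundant. The 89 genes of the 5 complexes together made up 2.89% to 3.71% of all TPM in a library. Of the 91, 82 passed the filter on low counts. The other 9 were COX4I2, COX6A2, COX6B2, COX7A1, COX7B2, COX8C, NDUFA4L2, ATP5MGL and the read-through ATP5MF-PTCD1. The highest level of complex I was that of NDUFS5, an accessory subunit, with a mean of 1237 TPM over the 6 libraries, and the lowest that of NDUFA5 at 10.9 TPM. In complex II, SDHD, a membrane anchor, was highest at 145 TPM and SDHC, the other anchor, lowest at 55.9 TPM. UQCRH, the hinge protein of complex III, was highest of all at 1561 TPM, and its retrocopy UQCRHL lowest of that complex at 8.52 TPM. COX6B1 (1480 TPM) and COX7B (148 TPM) bounded complex IV, and the catalytic beta subunit ATP5F1B (1256 TPM) and ATP5F1E, the epsilon subunit (102 TPM), bounded complex V. SDHA to SDHD of complex II had a median of 92.0 TPM, against 689 TPM over the 12 measurable genes of complex IV.

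The isoform pairs were used unequally in all 3 conditions. COX4I1, the common form of subunit IV, had 993 and 1299 TPM in UT cells, 982 and 1145 in Ni-E cells, and 927 and 1356 in Ni-W cells, each given for the library without suffix and then Dup. Its hypoxia-linked partner COX4I2 had 0 reads in both UT and both Ni-W libraries, and 2 reads and 1 read in the Ni-E libraries, which is at or under the floor of 3 reads. NDUFA4 had 160 and 173 TPM in UT, 130 and 151 in Ni-E and 149 and 157 in Ni-W cells. NDUFA4L2, its HIF-responsive paralog, had 5 and 8 reads in UT, 3 and 5 in Ni-E and 0 and 6 in Ni-W cells, so that no rise was detectable at this depth. COX6A2 and COX7A1, the heart and muscle forms, were at 0 in every library, beside 778 to 1322 TPM of COX6A1 and 706 to 787 TPM of COX7A2. The testis form COX6B2 had 3 to 10 reads per library, beside COX6B1 at 1167 to 1878 TPM. COX7A2L, which helps to join complexes III and IV, was at 181 to 218 TPM.

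Whether nickel changed these transcripts was asked with edgeR's quasi-likelihood test on the estimated counts, with Benjamini-Hochberg adjustment over 14502 genes. In this fit, which has no term for the library set, no respiratory chain gene passed an adjusted p below 0.05 in any contrast, with or without a 1.5-fold threshold. For Ni-E vs UT, 314 genes passed (2.17% of those tested, all of them past 1.5-fold). An unadjusted p below 0.05 was found for 1 of the 82 and 1773 of all 14502 genes. For Ni-W vs UT, 87 genes passed (0.6%) and none of the 82 was below 0.05 unadjusted by edgeR, beside 1323 of all genes. Ni-W vs Ni-E gave 0 genes (0.0%), of 808 below 0.05 unadjusted, 1 of them a respiratory chain gene, whereas DESeq2 called 139 genes there and limma 0. DESeq2 called 1 of the 82 in Ni-E vs UT and 0 in the other contrasts, and limma on log2(TPM + 1) called 0 in all 3. With a term for the library set, edgeR gave 4 of the 82 lower in Ni-E vs UT at an adjusted p below 0.05. Of all 14502 genes that fit gave 1073 lower there. In Ni-W vs Ni-E it gave 1 of the 82 higher, beside 464 of all genes, and in Ni-W vs UT 0 of the 82. Since the contrasts with UT share the same UT libraries, their values are given side by side and not set against each other.

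The gene with an unadjusted p below 0.05 in edgeR's first fit was NDUFC2-KCTD14, a read-through of the complex I gene NDUFC2 into its neighbour. It is named here because of its values. It had 28.1 and 21.1 TPM in UT cells, 11.4 and 13.2 in Ni-E cells, and 22.8 and 24.4 in Ni-W cells, so that Ni-E cells were below both other groups without overlap. The log2 fold change for Ni-E vs UT was -0.99 (SE 0.25), with an edgeR adjusted p of 0.15 against 0.042 in DESeq2. For Ni-W vs Ni-E the log2 fold change was 0.91 (SE 0.25, edgeR adjusted p 0.54). Its reads are shared with NDUFC2 and KCTD14, and how the estimate divided them is uncertain. NDUFC2 itself had 75.6 and 73.5 TPM in UT and 67.7 and 78.2 in Ni-E cells, which overlap.

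Within each set of libraries, most of the genes were slightly lower in Ni-E than in UT cells. Of 82, 58 had a lower TPM in Ni-E cells in both the set without suffix and the Dup set, and 3 (NDUFA6, NDUFV1 and SDHA) had a higher one in both. Among all 14502 genes 36.3% were lower in both sets and 36.4% higher in both. Among the 1548 genes with a mean of at least 100 TPM, a level that most respiratory chain genes exceed, 47.2% were lower in both and 29.9% higher. The median log2 ratio of the 82 was -0.12 in the set without suffix and -0.15 in the Dup set, and for all genes it was -0.04 and 0.05. These differences are small, and in bulk RNA fewer cells of a type and less RNA per cell cannot be told apart. The fitted median log2 fold change was -0.16 for the 82 and -0.01 for all genes. Fitted values were below 0 for 75 of the 82, for 7486 of all 14502 genes and for 986 of the 1548. With 1 library left out, which sets libraries of different sets against each other, that fitted median was 0.10 without the UT Dup library and -0.02 without the Ni-E library without suffix.

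**Figure D1:**
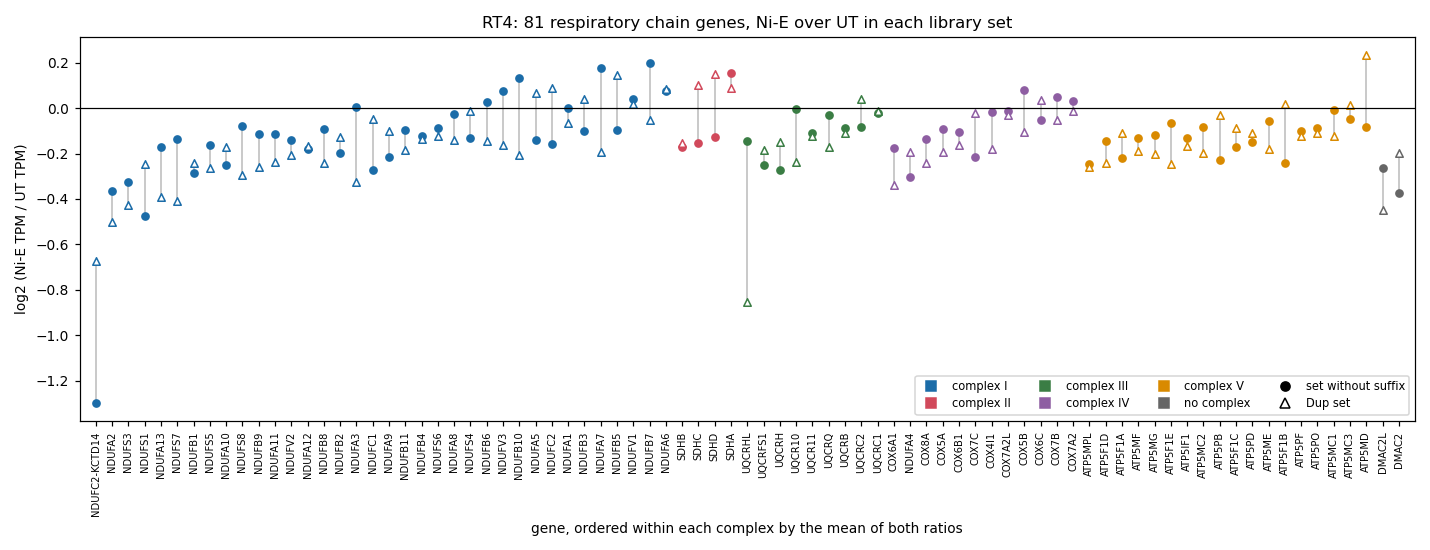
Log2 ratio of TPM in Ni-E over UT RT4 cells for 81 of the 82 genes that passed the filter, grouped by complex. Filled circles are the library set without suffix and open triangles the Dup set, with a grey line joining both values of a gene. In 57 genes both points are below 0 and in 3 both are above 0, and NDUFC2-KCTD14 is lowest.

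The 2 sets of libraries also differed from each other. Of the 82 genes, 63 were higher on average in the Dup set, with a median log2 Dup over no suffix TPM of 0.24, whereas over all genes the median was -0.24. Across the 82 genes this ratio ran against the log2 length of the transcript with Pearson's r of -0.59 and Spearman's rho of -0.58, and across 14380 genes with -0.48 and -0.55. This is a description across genes of the same libraries, and genes are not replicates. ATP5F1B went against most of the 82, with 1638 TPM in the UT library without suffix and 1041 in UT Dup.

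By complex, Ni-E cells had less summed TPM than UT cells in both sets for complexes I, III, IV and V. Complex I genes summed to 9528 and 11810 TPM in UT, 8761 and 10280 in Ni-E, and 8658 and 11890 in Ni-W cells. The Ni-E sums differed from UT by -8.05% and -13.0% for complex I, -10.9% and -9.04% for complex III, -6.22% and -9.66% for complex IV, and -9.20% and -8.15% for complex V. Complex II went different ways, at -4.52% without suffix and 4.23% in Dup. In Ni-W cells the sets parted. The sums of complexes I, III, IV and V were -9.13%, -9.97%, -9.92% and -5.62% from UT without suffix, but 0.64%, -3.18%, -1.31% and 0.42% in Dup. No test was made on these sums.

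**Figure D2:**
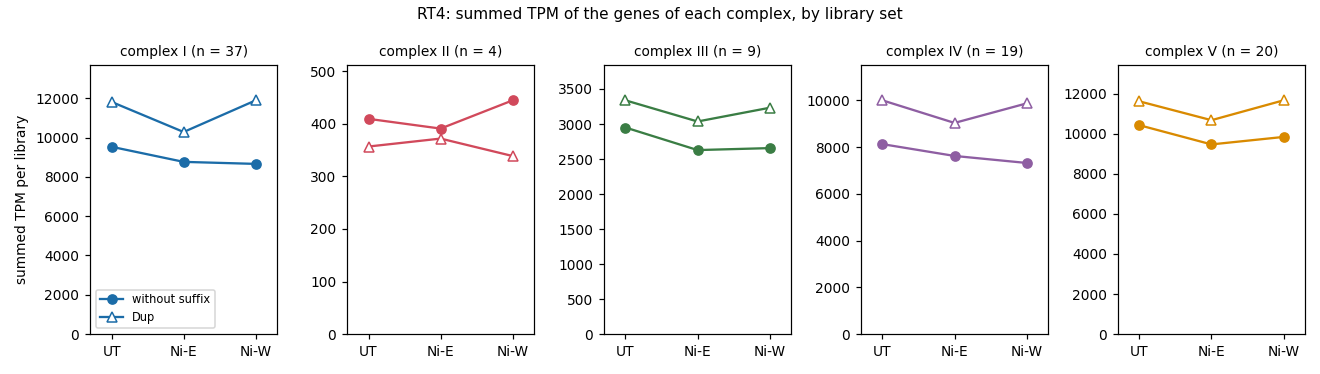
Summed TPM of the genes of each complex by condition in RT4 cells, with filled circles for the library set without suffix and open triangles for Dup, 1 library per point. For complexes I, III, IV and V the Ni-E point is below the UT point in both sets, and complex II shows no such pattern.

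In complex I, the NADH dehydrogenase, 24 of 37 genes were lower in Ni-E cells in both sets and 2 higher, with a median log2 fold change of -0.17. NDUFS1, the largest core subunit, which carries iron-sulfur clusters, had 70.5 and 43.8 TPM in UT, 50.8 and 37.0 in Ni-E, and 70.1 and 37.8 in Ni-W cells. It was lower in Ni-E than in UT cells of the same set, although the groups overlapped, and its log2 fold change was -0.36 (SE 0.25, edgeR adjusted p 0.77). NDUFV1, which binds the flavin that accepts electrons from NADH, had 167 and 141 TPM in UT and 172 and 143 in Ni-E cells, a log2 fold change of 0.02 (SE 0.16). The core subunit NDUFS3, picked for its values, had 238 and 285 TPM in UT, 190 and 212 in Ni-E, and 184 and 230 in Ni-W cells. All 4 of its nickel-treated libraries were below both UT libraries, with log2 fold changes of -0.41 and -0.38 (SE 0.31 for both, edgeR adjusted p 0.83 and 0.99). NDUFA2, an accessory subunit also picked for its values, had 206 and 295 TPM in UT and 160 and 209 in Ni-E cells, which overlap (log2 fold change -0.48, SE 0.43). NDUFS1, NDUFS3 and NDUFA2 passed in Ni-E vs UT only in the fit with a term for the library set.

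Complex II, succinate dehydrogenase, links the chain to the tricarboxylic acid (TCA) cycle. SDHA, its flavoprotein, had 99.1 and 85.5 TPM in UT, 110 and 91.1 in Ni-E and 116 and 89.3 in Ni-W cells, and was higher than UT in both sets in both (log2 fold changes 0.11 and 0.09, SE 0.15). SDHB, the iron-sulfur subunit, went the other way, with 95.5 and 88.5 TPM in UT, 84.9 and 79.4 in Ni-E and 90.01 and 74.4 in Ni-W cells. Its Ni-E levels did not overlap those of UT (log2 fold change -0.18, SE 0.17, edgeR adjusted p 0.91). The anchors SDHC and SDHD were mixed between the sets. The median of the 4 fitted values was -0.01 for Ni-E vs UT.

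In complex III, 8 of 9 genes were lower in Ni-E cells in both sets and none was higher in both. UQCRFS1, the Rieske iron-sulfur protein, had 90.2 and 64.4 TPM in UT, 75.9 and 56.7 in Ni-E, and 85.9 and 56.6 in Ni-W cells (Ni-E vs UT log2 fold change -0.23, SE 0.19). UQCRC1, a core protein without a redox centre, was nearly level, at 328 and 333 TPM in UT and 323 and 329 in Ni-E cells. UQCRHL had 30 and 71 reads in UT and 27 and 40 in Ni-E libraries, and as a near copy of UQCRH its reads are uncertain.

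In complex IV, cytochrome c oxidase, 8 of 12 genes were lower in both sets and none higher in both, with a median log2 fold change of -0.14. COX5A, a subunit on the matrix side, had 404 and 489 TPM in UT, 379 and 427 in Ni-E, and 369 and 458 in Ni-W cells. COX6A1 had 1001 and 1322 TPM in UT and 888 and 1044 in Ni-E cells, a log2 fold change of -0.31 (SE 0.40), and NDUFA4 one of -0.26 (SE 0.25) without overlap of the groups. COX7A2 and COX7B, in contrast, had ratios of different sign in the sets.

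In complex V, 15 of 18 genes were lower in Ni-E cells in both sets and none was higher in both (median log2 fold change -0.17). The alpha subunit ATP5F1A had 974 and 719 TPM in UT, 838 and 667 in Ni-E, and 998 and 694 in Ni-W cells. The gamma subunit ATP5F1C, the rotor stalk, had 400 and 453 TPM in UT, 356 and 426 in Ni-E and 397 and 439 in Ni-W cells. For ATP5F1B, the beta subunit, the sets disagreed, with 1638 and 1041 TPM in UT against 1387 and 1053 in Ni-E cells. ATP5IF1, the inhibitor that blocks reverse action of the synthase, had 447 and 648 TPM in UT, 408 and 577 in Ni-E, and 422 and 742 in Ni-W cells (Ni-E vs UT log2 fold change -0.34, SE 0.42). DMAC2 and DMAC2L, the genes outside the complexes, were both lower in Ni-E cells in both sets.

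Ni-W cells were compared within the sets in the same way. In TPM, 37 of 82 genes (45.1%) were lower in Ni-W than in UT cells in both sets and 8 (9.76%) higher. Among all genes it was 29.7% and 37.0%, and among the 1548 with a mean of at least 100 TPM 38.3% and 35.7%. Against Ni-E cells, 29 (35.4%) were higher in both sets and 1, COX7A2L, lower (1.22%). It was 29.3% and 21.1% among all genes, and 32.95% and 21.45% among the 1548. CPM scale counts by library size (here with TMM factors) and not by length. In CPM the Ni-E vs UT count was 57 lower and 2 higher, beside 5492 and 5345 of all 14502 genes. That for Ni-W vs UT was 42 lower and 4 higher, beside 5267 and 4844. For Ni-W vs Ni-E it was 13 higher and 7 lower, beside 3739 and 3838 of all genes. The count of genes lower in Ni-W than in UT cells was thus similar on both scales (37 and 42), whereas the other counts for Ni-W cells moved with the scale.

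The genes around the chain were counted in the fit without a term for the library set. None of the 15 complex I assembly factors, 4 of complex II, 7 of complex III with cytochrome c1, 20 of complex IV, 4 of ATP synthase, 7 electron carriers and quinone reducers, 11 measurable biogenesis regulators and 13 TCA cycle genes passed edgeR's test in any contrast in that fit. Of these 81 genes 3, 1 and 1 had an unadjusted p below 0.05 in Ni-E vs UT, Ni-W vs UT and Ni-W vs Ni-E, and DESeq2 and limma called 0. TCA cycle genes had a median log2 fold change of -0.13 in Ni-E vs UT, and 8 of 13 were lower in both sets. The biogenesis regulators, among them NRF1, GABPA and TFAM, had one of 0.01. Of 8 HIF-linked mitochondrial genes, 3 rose in Ni-E vs UT and none fell, with a median of 0.72, and DESeq2 called 4. BNIP3, a receptor for removal of mitochondria, had 26.4 and 21.1 TPM in UT, 94.98 and 88.6 in Ni-E, and 58.5 and 45.3 in Ni-W cells. Its Ni-E levels were above all others, and it rose by a log2 fold change of 1.95 (SE 0.17, edgeR adjusted p 0.011). Its relative BNIP3L rose by 1.20 (SE 0.17, adjusted p 0.033), and MXI1, an antagonist of MYC, by 1.97 (SE 0.21, adjusted p 0.019). PDK1, which holds pyruvate back from the TCA cycle, had 8.03 and 6.16 TPM in UT and 20.2 and 16.7 in Ni-E cells, with an edgeR adjusted p of 0.10. None of the 3 genes that rose passed when any 1 of the UT or Ni-E libraries was left out, with edgeR adjusted p from 0.10 to 0.29, although the log2 fold change was 1.91 to 1.97 for BNIP3 and 1.90 to 2.04 for MXI1. In Ni-W vs UT, where BNIP3 had a log2 fold change of 1.07 (SE 0.16), none of the 8 passed edgeR's test in that fit, 4 had an unadjusted p below 0.05, and DESeq2 called 2 and limma 0. The oxygen-regulated LONP1 and HIGD1A had log2 fold changes of 0.24 and 0.02 and did not pass.

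Other features of the RT4 cells moved with exposure. In the fit without a term for the library set, 2 of 14 urothelial markers fell in Ni-E vs UT. KRT20 fell from 11.1 and 11.3 TPM to 0.25 and 0.11, and UPK1A from 70.6 and 92.5 to 16.1 and 18.5 (edgeR adjusted p 0.0085 and 0.038). With that term edgeR called 6 of the 14 lower and 1 higher at an adjusted p below 0.05. DESeq2 called 4 of the 14, and 9 were lower in both sets and 3 higher. UPK2, named after its values were seen, had 285 and 402 TPM in UT and 96.2 and 128 in Ni-E cells. Its edgeR adjusted p was 0.16, and 7.9e-06 with the term for the library set. UPK3B, likewise, had 293 and 313 TPM in UT and 391 and 406 in Ni-E cells (edgeR adjusted p 0.59, and 0.017 with that term). In Ni-W vs UT KRT20 fell too, to 1.59 and 1.37 TPM (adjusted p 0.029). With any 1 of the libraries compared left out, the log2 fold change in Ni-E vs UT was -6.53 to -5.55 for KRT20 and -2.56 to -1.90 for UPK1A. That of KRT20 in Ni-W vs UT was -3.105 to -2.812. Such fits leave 1 library in a group, so they cannot decide whether a call holds. The summed level of the list, most of it keratins, was 13710 to 15040 TPM in UT and 14530 to 14830 in Ni-E cells. Fibroblast markers summed to 1.09 to 1.75 TPM in UT and 3.05 to 4.77 in Ni-E cells, where COL3A1 had 4.13 and 2.18 TPM against 0.84 and 0.26 in UT cells (edgeR adjusted p 0.15, called by DESeq2), and leukocyte markers, nearly all of it CD68, to 7.58 to 8.14 TPM in UT and 10.9 to 13.5 in Ni-E cells. The part of these shifts in the respiratory chain values was not tested.

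In BEAS-2B cells the question was whether the promoters of the same genes kept their H3K4me3. The value is RPKM over 2 kb on each side of the start site. Since the median over all listed promoters was 1.57 RPKM in UT, 1.39 in Ni-E and 1.12 in Ni-W cells, ratios were taken after division by each library's median, and 1.5-fold was used as the threshold for description. A mean of 1 RPKM or more over the conditions was reached by 13701 promoters, among them 80 of the 91. In UT cells their median was 7.17 RPKM, against 6.23 over the 13701. UQCRH was highest of the group, at 16.3 RPKM in UT, 15.4 in Ni-E and 7.87 in Ni-W cells. Further values below follow that order.

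During exposure the marks were level. None of the 80 was past 1.5-fold in Ni-E vs UT in either direction, beside 0.65% of all promoters higher and 0.394% lower. The median log2 ratio was 0.17 for the 80 and 0.11 for all. The 3 highest were NDUFA7 (11.5 to 13.7 RPKM, log2 ratio 0.43), ATP5MD (7.59 to 8.80, 0.39) and NDUFS1 (8.88 to 10.0, 0.35). After scaling, 77 of the 80 had a ratio above 0, beside 10728 of all 13701 promoters. The 3 below 0 were NDUFA4L2, COX6B2 and ATP5F1A. Without scaling, 38 of the 80 had a ratio above 0, beside 3831 of all 13701. NDUFA4L2 stood at 6.59 RPKM untreated (95% Wilson interval 6.13 to 7.08, from 748 reads), at 4.01 with nickel (3.70 to 4.34, 601 reads) and at 2.67 after washout (2.40 to 2.98, 320 reads). Its log2 ratio in Ni-E vs UT was -0.54 after scaling and -0.72 without, which is past 1.5-fold. COX6B2 had 2.78, 1.83 and 1.24 RPKM, with a log2 ratio of -0.43 after scaling and -0.61 without, and ATP5F1A had -0.03 after scaling. These intervals cover counting error only, since reads without molecular identifiers are not independent molecules and no replicate was available. The 2 lowest ratios were thus those of alternative isoforms, each with 10 reads or fewer per library in RT4 cells.

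**Figure D3:**
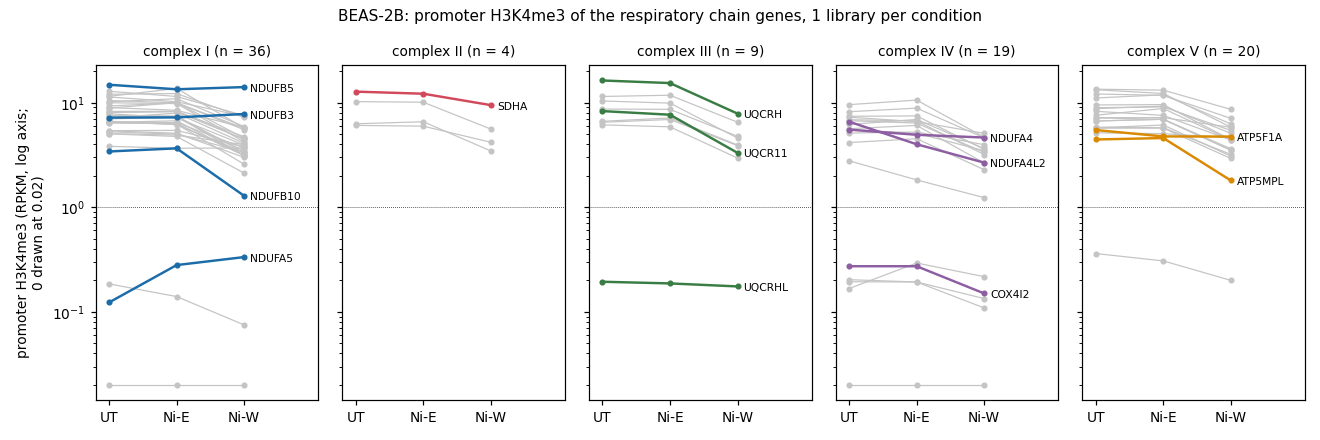
Promoter H3K4me3 of each gene by condition in BEAS-2B cells, as RPKM on a log axis with values of 0 drawn at 0.02, 1 panel per complex and 1 line per gene, with 1 gene of complex I left out. Coloured lines are the genes named in the panel and grey lines the others, and the dotted line marks 1 RPKM. Most lines are level from UT to Ni-E and lower in Ni-W, whereas NDUFB3 and NDUFB5 stay level throughout.

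In Ni-W cells most of the promoters had less of the mark. Against UT, 16 of 80 were at least 1.5-fold lower and 1 higher, against 18.4% and 3.39% of all promoters, so that the share was near the background. The median log2 ratio was -0.38 for the 80 and -0.33 for all. Against Ni-E, 37 of 80 were at least 1.5-fold lower (46.3%) and 0 higher, against 30.7% and 3.06% of all promoters, with medians of -0.57 and -0.42. Both counts depended on the scaling. Without it, 66 and 60 of the 80 were lower, and after quantile normalization of the libraries only 2 and 2, with 3 and 4 higher. The median over all promoters in Ni-W vs UT was -0.81 without scaling and -0.07 after quantile normalization. By complex, the median for Ni-W vs UT was -0.37 for the 33 promoters of complex I, -0.21 for the 4 of complex II, -0.47 for the 8 of complex III, -0.45 for the 14 of complex IV and -0.38 for the 19 of complex V.

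NDUFB10, NDUFA13 and UQCR11 had the lowest ratios against UT. NDUFB10, an accessory subunit of the membrane arm of complex I, stood at 3.42 RPKM untreated (3.09 to 3.78, from 388 reads), at 3.66 with nickel (3.37 to 3.98, 549 reads) and at 1.29 after washout (1.10 to 1.51, 154 reads), a log2 ratio of -0.92 to UT and -1.20 to Ni-E. NDUFA13, an accessory subunit also known as GRIM-19, had 6.65, 6.24 and 2.58 RPKM, and UQCR11, a small subunit of complex III, 8.31, 7.68 and 3.32 (log2 ratios to UT -0.88 and -0.84). ATP5MPL, a small subunit of ATP synthase, had 4.45, 4.59 and 1.80 RPKM and a log2 ratio of -1.04 to Ni-E. At each of these the Ni-W interval lay below both others, as counted in reads. The intervals are without scaling, where 66 of the 80 and 71.9% of all promoters were at least 1.5-fold lower in Ni-W than in UT cells. Their RNA in RT4 Ni-W cells showed no such size of difference, with log2 fold changes to UT of -0.03, -0.20, -0.15 and -0.20, but the cell line and the washout differ.

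A few promoters kept the mark. NDUFB3, an accessory subunit of complex I, stood at 7.20 RPKM untreated (6.73 to 7.72, from 818 reads), at 7.24 with nickel (6.82 to 7.68, 1085 reads) and at 7.80 after washout (7.32 to 8.32, 934 reads), so that the 3 intervals overlap as deposited. After scaling its log2 ratio to UT was 0.60, the only one past 1.5-fold upward, and without scaling it was 0.11. NDUFB5 had 14.8, 13.4 and 14.1 RPKM and NDUFS4, which is needed for late steps of complex I assembly, 3.83, 3.67 and 3.69, with scaled log2 ratios of 0.41 and 0.43. In all, 11 of 80 had a scaled ratio to UT above 0, beside 2874 of all 13701 promoters. SDHA, NDUFA4, ATP5F1A and ATP5MC3 were among the 11. NDUFA4 (5.53, 4.93 and 4.64 RPKM) and its paralog NDUFA4L2 therefore had ratios of different sign to UT after scaling (0.23 and -0.81), but both were below 0 without it (-0.25 and -1.30).

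The ratio of a promoter in Ni-W cells ran with that of its surroundings. For each of the 80, the median was taken over the other promoters with at least 1 RPKM whose genes lay from 4 kb to 5 Mb away, 11 to 219 in number. Pearson's r between the gene's own log2 ratio and this median was 0.64 for Ni-W vs UT (Spearman's rho 0.61), 0.65 for Ni-W vs Ni-E (0.59) and 0.02 for Ni-E vs UT (0.09). The points share libraries, and genes near each other share surroundings, so this is a description. Around NDUFB3 on chromosome 2 the median was 0.26, and around ATP5MC3 on the same chromosome it was 0.29 beside an own ratio of 0.33. Around NDUFB10 on chromosome 16 the median was -0.62 over 129 promoters, and around NDUFA13 and UQCR11 on chromosome 19 it was -0.51 and -0.50. NDUFB5 and NDUFS4 stood apart, with medians of -0.33 and -0.34 around them. NDUFS1 went the other way, at -0.47 in surroundings of 0.08.

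**Figure D4:**
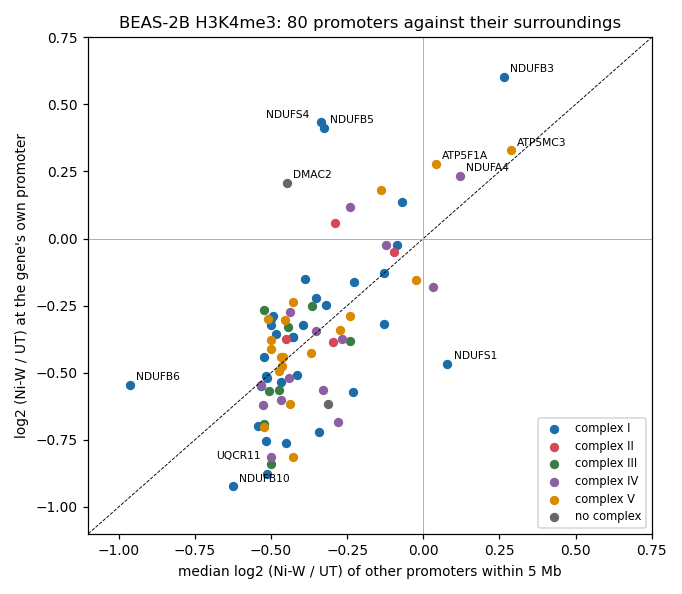
Log2 ratio of H3K4me3 in Ni-W over UT BEAS-2B cells at each gene's own promoter (vertical axis) against the median of other promoters within 5 Mb (horizontal axis), after scaling each library by its median. Each point is 1 of 80 promoters, coloured by complex, and the dashed line marks equal values. Points follow the line with Pearson's r of 0.64, and NDUFS4, NDUFB5 and NDUFS1 lie far from it.

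Of the genes, 11 had a mean below 1 RPKM, and those described here were of 2 kinds. COX4I2 (0.27, 0.27 and 0.15 RPKM), COX6A2, COX7A1, COX7B2, COX8C, UQCRHL and ATP5MGL were alternative forms or copies, and all but UQCRHL were also below the filter in RT4 cells. COX8C was at 0 in all 3 libraries, where 3 reads, the floor, correspond to 0.020 to 0.026 RPKM. NDUFA3, NDUFA5 and NDUFA6 are ordinary subunits that RT4 cells expressed. NDUFA3 had 0.19, 0.14 and 0.08. NDUFA5 stood at 0.12 RPKM untreated (0.073 to 0.21, from 14 reads), at 0.28 with nickel (0.21 to 0.38, 42 reads) and at 0.33 after washout (0.25 to 0.45, 40 reads). NDUFA6 was listed at 0 in all 3, beside 126 to 182 TPM in RT4 cells. The start site that defined each window is not given in the table, so a window away from the start in use cannot be told apart from an unmarked promoter. NDUFC2 and NDUFC2-KCTD14 had identical values, as had ATP5MF and ATP5MF-PTCD1, and each pair is 1 promoter. Leaving out the read-throughs made the 80 into 78 and changed the Ni-W vs Ni-E count from 37 to 36.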

How the data were processed

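Genes and gene lists were chosen with earlier results of these data known. RT4 expression was deposited as RSEM estimated counts and TPM for 28252 genes. Their methods describe STAR with hg19, the labels name GRCh38, and which of these the RSEM values used is not given in the sources used here. Deposited estimated counts were rounded and tested with edgeR 4.0.16 (TMM, filterByExpr, quasi-likelihood) in 1 model of 3 groups without a block, with Benjamini-Hochberg adjustment. Calls needed an adjusted p below 0.05 and 1.5-fold. H3K4me3 was deposited by the authors as promoter RPKM (2 kb on each side of the TSS), from BWA alignments to hg38 in which redundant reads counted once, without peak calling. ChIP was described on 2 biological replicates, and 1 library per condition was analysed. Input libraries were not analysed here. Every RPKM value above 0 was a whole multiple of a step per library (within 0.00051 RPKM), from which reads were recovered; intervals are 95% Wilson intervals.

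Older symbols were bridged through RefSeq synonyms. Named were isoform pairs, core subunits, the highest and lowest TPM of each complex, the 3 highest and lowest H3K4me3 ratios per contrast, promoters under 1 RPKM, and called list genes. Some others are marked as picked for their values. PDK1, LONP1, HIGD1A, COL3A1 and ATP5MC3, among others, fall outside these rules and carry no such mark. Alternatives were RLE factors, DESeq2 1.42.0, other count filters, a replicate block, only the groups compared, limma 3.58.1 on log2(TPM + 1) or log2(TPM + 0.1), each library left out, and for H3K4me3 no scaling, quantile normalization, at least 10 RPKM, and RPKM + 1. Scripts were tested on simulated data (R 4.3.3, Python 3.11.15). Of the genes counted, 1 is not reported here on its own or drawn in plots of single genes.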

Additional observations from a re-analysis of the deposited data

How the results depend on the processing

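In RT4 cells the count of respiratory chain genes at 1.5-fold and at an adjusted p below 0.05 was 0 in all 3 contrasts in several alternatives. These were RLE factors, both other count filters, only the groups compared and both forms of limma. With only the groups compared, 354, 0 and 0 of all genes passed, so that a count of 0 carries no information where no gene passed. The same holds for Ni-W vs Ni-E with RLE factors, with at least 10 counts in every library and with limma on log2(TPM + 1), where 0 of all genes passed. With a library left out, a group left with 1 library is assumed to vary like the others, and calls in those fits decide nothing. DESeq2 called 1 in Ni-E vs UT (NDUFC2-KCTD14, lower). It called 730, 442 and 139 of all genes in the 3 contrasts, against 314, 87 and 0 by edgeR. With the replicate block, Ni-E vs UT gave 4 lower at an adjusted p below 0.05 (NDUFA2, NDUFS1, NDUFS3 and NDUFC2-KCTD14) and 1 past 1.5-fold, Ni-W vs Ni-E gave 1 higher by either rule, and Ni-W vs UT gave 0. The median log2 fold change of the 82 was -0.15 with the block in Ni-E vs UT, and 74 were below 0. Of the 81 genes around the chain, the block called ETFB higher and COX14, SQOR and ESRRA lower in Ni-E vs UT, ETFB higher and COX14 lower in Ni-W vs UT, and SQOR higher in Ni-W vs Ni-E. It called BNIP3, BNIP3L, MXI1 and PDK1, 4 of the 8 HIF-linked genes, higher in both contrasts with UT and lower in Ni-W vs Ni-E. Of the urothelial markers it called 6 lower and 1 higher in Ni-E vs UT, 3 lower in Ni-W vs UT and 5 higher in Ni-W vs Ni-E, and it called COL3A1, CD68 and KRT5 higher in both contrasts with UT and VWF lower in Ni-E vs UT. Over all genes it gave 2579, 1693 and 853 at an adjusted p below 0.05. The titles share the suffix Dup or its absence and state no pairing. Deviations from the group means correlated between libraries of the same set at 0.85, 0.91 and 0.84 over 11141 genes. The median log2 fold change of the 82 genes was -0.51 to 0.19 for Ni-W vs UT and -0.33 to 0.38 for Ni-W vs Ni-E with single libraries left out, and -0.39 to 0.10 for Ni-E vs UT.

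In alternatives chosen after seeing the data, CPM with TMM scaling changed the genes higher in both sets from 8 to 4 in Ni-W vs UT, and in Ni-W vs Ni-E those lower from 1 to 7 and those higher from 29 to 13. Leaving out read-throughs moved no such count by more than 1. For H3K4me3, genes past 1.5-fold in either direction numbered 0, 17 and 37 (Ni-E vs UT, Ni-W vs UT, Ni-W vs Ni-E). They were 2, 66 and 60 without scaling and 1, 5 and 6 with quantile normalization. Among the 9 with at least 10 RPKM they were 0, 1 and 3, and with RPKM + 1 they were 0, 11 and 22. Among all promoters with at least 10 RPKM, Ni-W vs UT had 14.1% past 1.5-fold downward and 0.848% upward. Ni-W vs Ni-E had 32.5% and 0.283%. With RPKM + 1 all promoters had 6.84% and 2.01% in Ni-W vs UT, and 16.5% and 1.51% in Ni-W vs Ni-E. Depth limits the alternative isoforms, with 10 reads or fewer per library in RT4 cells.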
